A study of Homo sapiens with 6 samples.

Results

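The kinases that relay signals through the mitogen-activated protein (MAP) kinase cascades were examined in AGS cells given an inhibitor of the microRNA miR-25-3p. AGS is an established human line from a gastric adenocarcinoma. The members are the 38 genes, of 18656 measured, whose symbol on the array annotation is MAPK, MAP2K, MAP3K or MAP4K followed by a number and nothing else. They fall into 12 MAPK, 7 MAP2K, 15 MAP3K and 4 MAP4K genes, read by 693 probe sets that name 1 gene only, and 3 further genes of this naming were not analysed here. The members were chosen by their symbols and not by a measured level, but the family was proposed with earlier results of this contrast known. Their differences are therefore given as a description.

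Expression was measured on 6 arrays of the Human Gene 1.0 ST type, 3 from cells that received anti-miR-25-3p inhibitor and 3 from cells that received a non-targeting control RNA. All cells were AGS, were transfected by lipid reagent and again 24 h later, and were harvested 48 h after the first transfection. The labels call the 3 samples of a group biological replicates. The line is 1 tumour's cells, so the spread between arrays holds no differences between donors.

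In these cascades a MAP4K or another upstream signal activates a MAP3K, which phosphorylates a MAP2K, which phosphorylates and activates a MAP kinase. Separate arms end in the ERK, JNK, p38 and ERK5 kinases, which act on transcription factors and further kinases. The ERK arm follows growth factors in epithelial cells, and the JNK and p38 arms follow stress and cytokines. The cascades are controlled mainly by phosphorylation, which an array of messenger RNA does not measure. MicroRNAs pair with messages through their seed and lower the amount or the translation of many of them, and MAP2K4, the JNK and p38 activator also called MKK4, is a reported target of miR-25.

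The sequences below show which microRNAs share the seed of the inhibited one, since each could act on the same sites. They are from RefSeq, on build GRCh38.p14, written 5′ to 3′, with the seed (bases 2 to 8) in capitals.
hsa-miR-25-3p: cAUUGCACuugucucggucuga
hsa-miR-32-5p: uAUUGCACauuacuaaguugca
hsa-miR-92a-3p: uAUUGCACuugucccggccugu
hsa-miR-92b-3p: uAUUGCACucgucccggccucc
hsa-miR-363-3p: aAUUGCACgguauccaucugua
hsa-miR-367-3p: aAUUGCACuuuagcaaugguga
The gene of miR-25 lies on the minus strand of chromosome 7, with the mature form at chr7:100093571-100093592. A message that pairs with all bases of this seed holds GUGCAAU. Sites in MAP2K4 or the other kinases were not searched, and the mature microRNAs were not measured.

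No kinase of the cascade passed the test. With limma and Benjamini-Hochberg adjustment over all genes, 0 of the 38 members passed an adjusted p of 0.05, against 0 of 18656 genes (0%). At an unadjusted p under 0.05 the fit held 0 members and 1141 genes (6.12%), and the smallest unadjusted p of a member was 0.062. The differences, inhibitor minus control on the log2 scale, ran over the members from -0.28 for MAP3K10 to 0.22 for MAP2K5. Every one of the 38 intervals at 95% included 0, and together they reached from 0.67-fold to 1.46-fold. The median difference was -0.044, with 14 members positive and 24 negative, while over all genes it was 0.0021 with 9427 positive and 9205 negative. The median size of a difference was 0.077 for members and 0.091 for all genes.

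**Figure D1:**
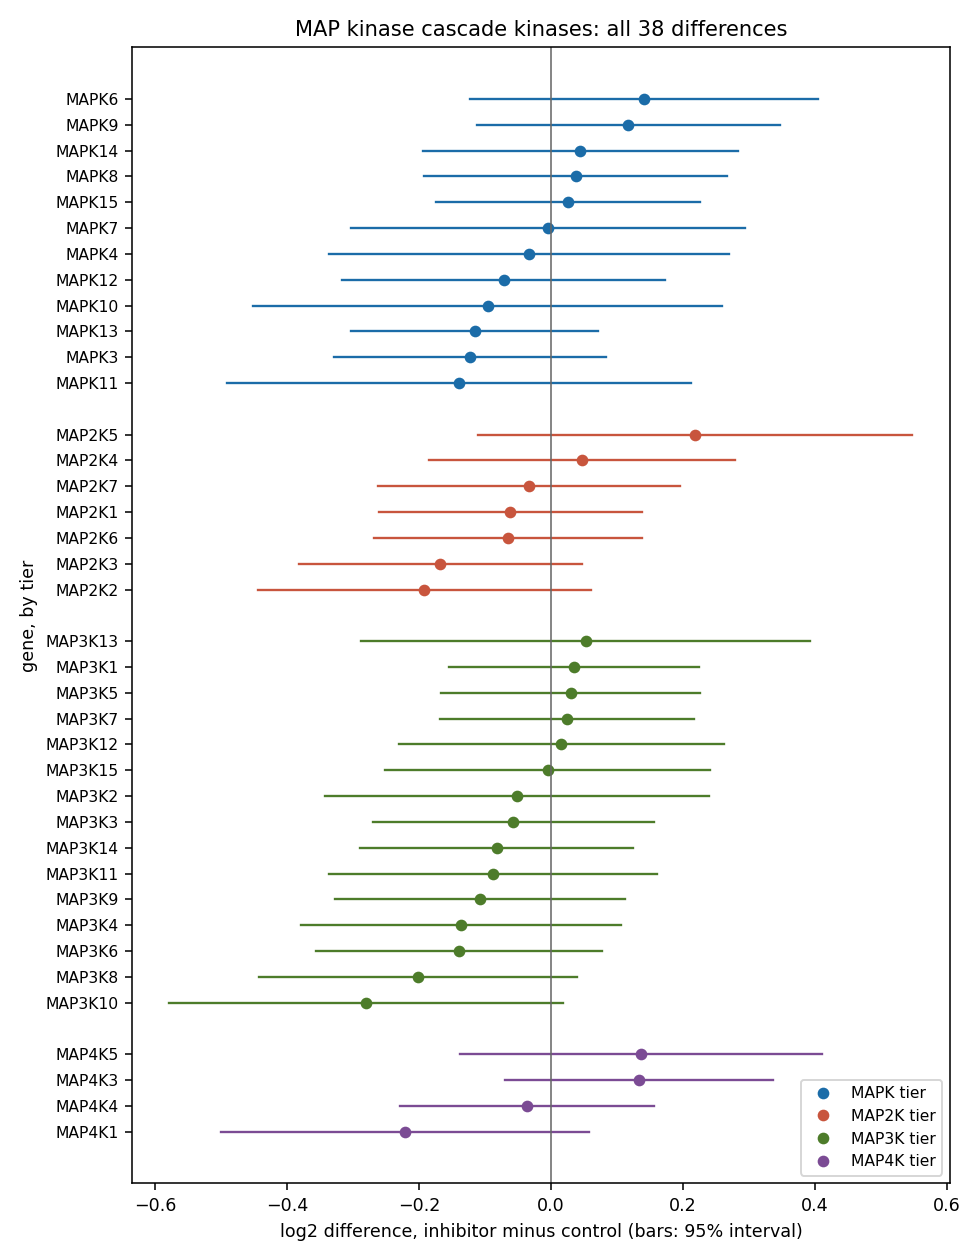
Log2 difference, inhibitor minus control, of the 38 kinases on the horizontal axis, by tier and size. Points are estimates and bars the 95% intervals of limma; every interval crosses 0.

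Arrays of the 2 groups overlapped for all members but MAP2K3 and MAPK13. These 2 members (5.26%) lay wholly below the control arrays, as did 7.68% of all genes, and 0 members lay wholly above. In either direction the groups were separate for 12.9% of all genes. The share among the kinases is therefore not above the background.

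MAP2K4, the reported target, measured 7.47, 7.40 and 7.68 in inhibitor arrays, against 7.42, 7.55 and 7.44 in control arrays. Only inhibitor replicate 3 lay above all the control arrays, and inhibitor replicate 2 lay below all of them. The means were 7.51 ± 0.14 in inhibitor and 7.47 ± 0.068 in control arrays (SD, n = 3 each), a difference of 0.047 (SE 0.10, limma adjusted p = 0.94). The 95% interval ran from 0.88-fold to 1.21-fold. RefSeq lists a pseudogene of MAP2K4, and whether it adds to the signal was not tested. Without inhibitor replicate 3 the difference was -0.035.

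The 13 probe sets of MAP2K4, each reading a part of the message, differed in sign. Of these, 8 were positive and 5 negative, from -0.78 to 0.52. At an unadjusted p under 0.05, 2 lay on each side, where 6.21% of all 224320 probe sets passed that mark. The brightest of the positive pair read 9.02, 9.13 and 9.32 in inhibitor arrays and 8.32, 8.72 and 8.92 in control arrays, a difference of 0.50. The brighter of the negative pair read 8.10, 8.50 and 8.58 in inhibitor arrays and 8.97, 8.80 and 9.05 in control arrays, a difference of -0.55. Both probe sets were picked for passing that mark, and they separated the groups in opposite directions. In the order of their identifiers, 6 of the first 7 probe sets were positive and 2 of the last 6, a split noticed after the values were seen. Whether that order follows the exons was not tested, and limma called 0 probe sets.

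**Figure D2:**
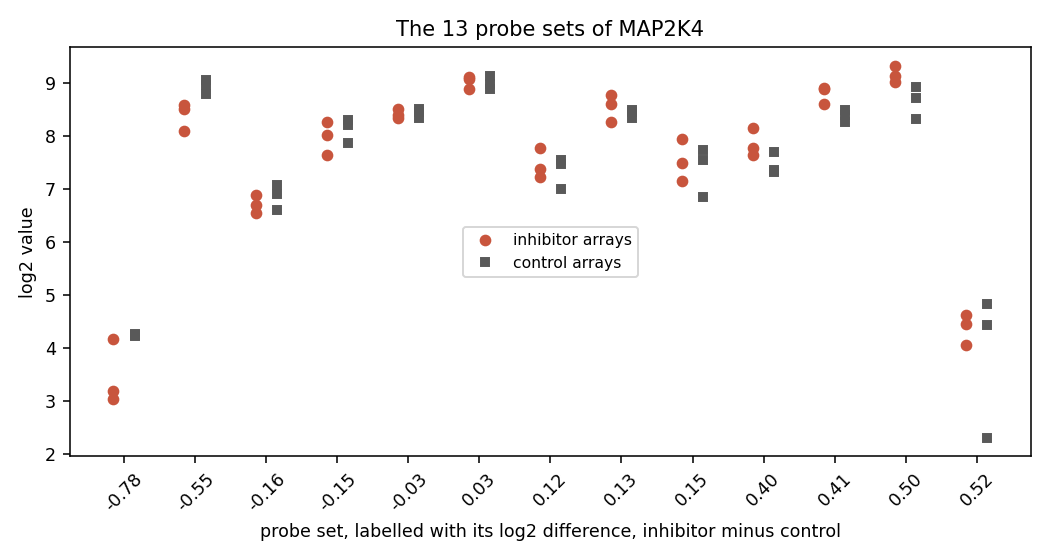
Log2 values of the 13 probe sets of MAP2K4 in each array, inhibitor arrays left of control arrays, ordered by their difference (the label under each). The probe sets at -0.78 and -0.55 lie below their control arrays and those at 0.41 and 0.50 above them; the groups overlap in the rest, the rightmost included.

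Among the other MAP2K genes, which activate the MAP kinases, MAP2K5 and MAP2K3 had the most positive and the most negative moderated statistic. MAP2K3 (MKK3), an activator of p38, measured 7.28, 7.22 and 7.15 in inhibitor arrays, against 7.51, 7.30 and 7.34 in control arrays. Its difference was -0.17 (SE 0.094, limma adjusted p = 0.79), with 12 of 18 probe sets negative, and the lowest control array lay close above the highest inhibitor array. MAP2K5 (MEK5), the activator of ERK5, measured 6.11, 5.70 and 6.09 in inhibitor arrays and 5.55, 5.96 and 5.73 in control arrays. The groups overlapped, since inhibitor replicate 2 lay among the control arrays, and the difference was 0.22 (SE 0.14, limma adjusted p = 0.80), with 19 of 27 probe sets positive. Leaving out 1 array gave 0.12 (without control replicate 1) to 0.35 (without inhibitor replicate 2), and the brightest probe set alone gave 0.013. For MAP2K3 the median over probe sets gave -0.010. The other p38 activator MAP2K6 (MKK6) had -0.065, the ERK activators MAP2K1 (MEK1) and MAP2K2 (MEK2) had -0.062 and -0.19, and the JNK activator MAP2K7 (MKK7) had -0.034.

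The terminal kinases spread from -0.14 to 0.14. MAPK13 (p38 delta) measured 8.39, 8.43 and 8.36 in inhibitor arrays, against 8.47, 8.50 and 8.54 in control arrays. The groups were separate, inhibitor below control, with a difference of -0.12 (SE 0.082, limma adjusted p = 0.81). Taking the median over its 17 probe sets in place of their mean made that difference positive. MAPK6 (ERK3, an atypical MAP kinase outside the usual cascade) measured 7.77, 7.81 and 7.98 in inhibitor arrays and 7.51, 7.86 and 7.77 in control arrays. Its groups overlapped at a difference of 0.14 (SE 0.12, limma adjusted p = 0.84), which was 0.039 without control replicate 1 and -0.0033 with the brightest probe set. MAPK3 (ERK1) had -0.12, with 9 of 11 probe sets negative. The JNK genes MAPK8, MAPK9 and MAPK10 had 0.037, 0.12 and -0.096, and the p38 genes MAPK14, MAPK12 and MAPK11 had 0.044, -0.072 and -0.14. MAPK7 (ERK5) had -0.0052, and the other atypical kinases MAPK15 and MAPK4 had 0.026 and -0.033. MAPK12 was read by 5 probe sets, since those it shares with HDAC10 were left out.

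The MAP3K tier, where stress, cytokine and growth signals enter, had 10 negative and 5 positive members. MAP3K10 (MLK2, a mixed-lineage kinase that activates the JNK arm) measured 6.41, 6.01 and 6.14 in inhibitor arrays, against 6.66, 6.35 and 6.39 in control arrays. One inhibitor array lay within the control range, although 9 of 10 probe sets were negative, and the difference of -0.28 (SE 0.13, limma adjusted p = 0.79) had the smallest p of the members. At the other end MAP3K1 (MEKK1) measured 9.71, 9.69 and 9.75 in inhibitor arrays and 9.69, 9.63 and 9.72 in control arrays, a difference of 0.035 (SE 0.083, limma adjusted p = 0.95) with overlapping groups. MAP3K8 (TPL2), which activates MEK downstream of inflammatory receptors, had -0.20. The other mixed-lineage kinases MAP3K9 and MAP3K11 had -0.11 and -0.088. The stress-responsive ASK kinases MAP3K5, MAP3K6 and MAP3K15 had 0.030, -0.14 and -0.0053.

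The rest of this tier lay closer together. The MEKK kinases MAP3K2, MAP3K3 and MAP3K4 had -0.052, -0.057 and -0.14. MAP3K7 (TAK1), which relays TGF-beta and cytokine signals, had 0.024, and MAP3K14 (NIK), the kinase of non-canonical NF-kB signalling, had -0.083. The leucine-zipper kinases MAP3K12 and MAP3K13 had 0.015 and 0.052. MAP3K12, MAP3K15 and MAPK10, with MAP4K1, were the 4 members dim enough to drop out when the dimmest 30% of genes were removed, and an array without detection calls cannot say whether dim genes are expressed.

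Of the MAP4K genes at the top of the cascades, 2 were positive and 2 negative. MAP4K1 (HPK1), a kinase known mainly from blood cells, measured 4.10, 4.04 and 3.83 in inhibitor arrays, against 4.42, 4.04 and 4.17 in control arrays. Control replicate 2 lay within the inhibitor range, and the difference was -0.22 (SE 0.12, limma adjusted p = 0.79), or -0.12 without control replicate 1. MAP4K3 (GLK), which also acts in nutrient sensing, measured 8.17, 8.33 and 8.35 in inhibitor arrays and 8.12, 8.14 and 8.18 in control arrays. A single inhibitor array overlapped the controls, and the difference was 0.13 (SE 0.089, limma adjusted p = 0.81), with 24 of 36 probe sets positive. MAP4K5 had 0.14, also on 24 positive probe sets of 33, and MAP4K4 had -0.037.

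**Figure D3:**
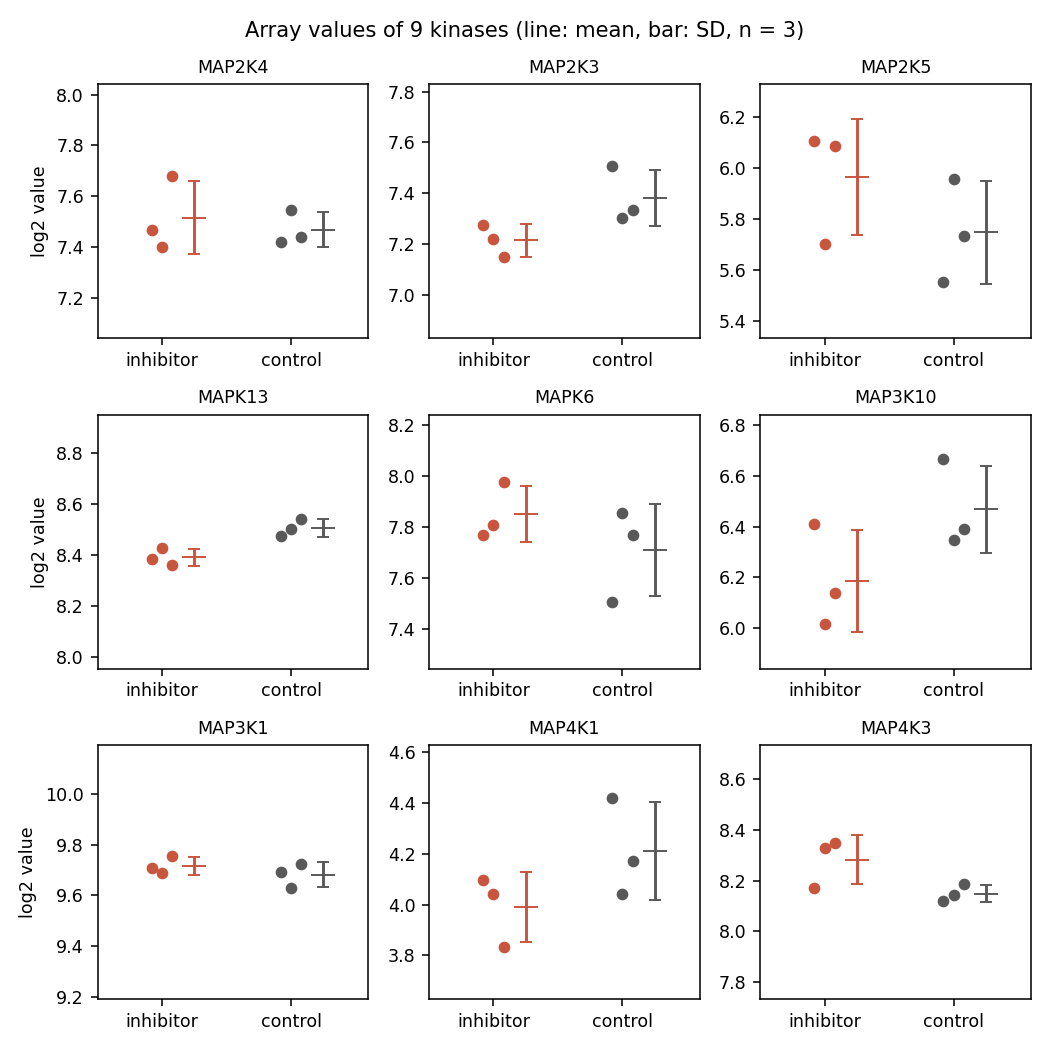
Log2 values of 9 kinases in each array (points), with mean and SD (n = 3), inhibitor left and control right; each panel spans 1 log2 unit. The 2 groups overlap in 7 panels, while MAP2K3 and MAPK13 lie wholly below their control arrays.

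Set side by side, the tiers differed little. The median difference was -0.019 for MAPK, -0.062 for MAP2K, -0.057 for MAP3K and 0.048 for MAP4K genes. The sign turned for the MAPK tier without inhibitor replicate 1 and with the median of probe sets, and for the MAP4K tier without control replicate 1 and with the median or the brightest probe set. The mean of the MAP3K tier was 6.587, 6.482 and 6.546 in inhibitor arrays and 6.601, 6.592 and 6.62 in control arrays. Each inhibitor array thus lay below the controls, but inhibitor replicate 1 did so narrowly, beside an inhibitor SD of 0.053. For the MAP2K tier the mean was 7.03, 6.90 and 6.94 in inhibitor arrays and 7.01, 6.99 and 6.99 in control arrays, which overlap. Over all 38 members it was 6.76, 6.74 and 6.75 in inhibitor and 6.79, 6.78 and 6.80 in control arrays, while the mean over all genes was 5.815 to 5.828 in inhibitor and 5.803 to 5.826 in control arrays. No difference between tiers was tested.

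Read along the arms, the 3 ERK kinases analysed here (MAP2K1, MAP2K2 and MAPK3) were all negative, with a mean of 8.43, 8.41 and 8.31 in inhibitor arrays and 8.58, 8.49 and 8.47 in control arrays. MAP2K4, which also activates p38 and had 0.047, was counted in the JNK arm only. In the p38 arm so drawn, 5 of 6 members were negative, with MAPK14 the exception. The mean of that arm was 6.88, 6.92 and 6.79 in inhibitor arrays and 6.95 in each control array. The JNK arm, which holds MAP2K4, had 3 positive and 2 negative members, with a mean of 6.45, 6.48 and 6.50 in inhibitor arrays and 6.46, 6.39 and 6.54 in control arrays. The ERK5 arm (MAP2K5 and MAPK7) had a mean of 5.60, 5.60 and 5.77 in inhibitor arrays and 5.50, 5.57 and 5.58 in control arrays and so lay above the controls, although neither of its members did alone. Means of the ERK and p38 arms thus lay below the controls in all inhibitor arrays and those of the JNK arm did not. The mean over all 38 members lay below them too, so this is not particular to those arms. Arm means were not recomputed with arrays left out or with other summaries of probe sets. No arm holds a called gene.

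**Figure D4:**
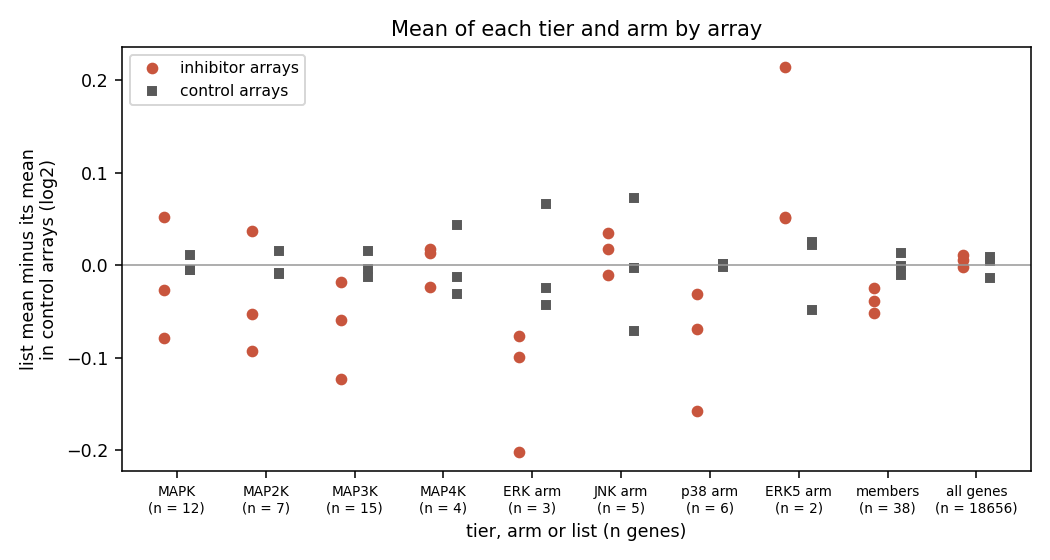
Mean log2 value of the 4 tiers, the ERK, JNK, p38 and ERK5 arms, the 38 members and all genes in each array, minus its mean in control arrays, inhibitor arrays left of control arrays. The MAP3K tier (narrowly), the ERK and p38 arms and the 38 members lie below the controls in each inhibitor array. The ERK5 arm lies above the controls, and the JNK arm and all genes overlap.

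Single probe sets of the members varied more than the gene means show. Of 693, 327 were positive and 365 negative, and 0 were called. An unadjusted p under 0.05 was held by 47 (6.78%), against 6.21% of all 224320 probe sets. Of these 47, 16 were positive and 31 negative, and the split by sign over all probe sets was not counted. For 8 members, probe sets past that mark pointed both ways. MAPK7 held the one with the smallest p, at 5.05, 4.37 and 5.06 in inhibitor arrays and 3.24, 3.47 and 3.33 in control arrays, a difference of 1.48. Another probe set of MAPK7 read 6.01, 6.45 and 6.01 in inhibitor arrays and 7.32, 6.91 and 7.06 in control arrays, a difference of -0.94. These separate the groups in opposite directions within 1 gene, whose mean over 9 probe sets differed by -0.0052. MAP3K6 likewise held probe sets at -1.04 and 0.77, with a gene difference of -0.14.

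Beyond the named kinases, 67 of 73 listed genes of the pathway were measured and the other 6 were not analysed here. None was called. At an unadjusted p under 0.05, 4 lay lower in inhibitor arrays (5.97%, against 3.16% of all genes), and 0 higher. Among kinases of the cascade with other names, 4 of 13 were positive. ARAF, a RAF kinase that activates MEK, measured 7.44, 7.51 and 7.53 in inhibitor arrays and 7.65, 7.74 and 7.69 in control arrays, with no overlap and a difference of -0.20 (limma adjusted p = 0.79). On the other side KSR2, a scaffold of the RAF-MEK step, had 0.22. The renamed MAP3K20 and MAP3K19, which carry older symbols on the annotation and so are no members, had -0.015 and -0.15.

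The scaffolds and regulators were divided, 7 positive and 7 negative. CNKSR1, a scaffold of RAS and RAF signalling, measured 6.98, 7.02 and 7.13 in inhibitor arrays and 7.25, 7.30 and 7.32 in control arrays, a difference of -0.25 (limma adjusted p = 0.79) with no overlap. SPAG9, a JNK scaffold, had 0.20. Of the MAP kinase phosphatases, which switch the terminal kinases off, 9 of 10 were negative, with DUSP5 the exception at 0.16. DUSP1 measured 6.84, 6.89 and 6.96 in inhibitor arrays and 7.07, 7.24 and 7.11 in control arrays, separate groups at a difference of -0.24 (limma adjusted p = 0.79). In the list of transcription factors that MAP kinases phosphorylate, 8 of 12 were negative and MEF2A had 0.15. JUN, which JNK phosphorylates, measured 8.18, 8.22 and 8.25 in inhibitor arrays and 8.38, 8.52 and 8.36 in control arrays, again separate, at -0.20 (limma adjusted p = 0.79). Of the kinases that MAP kinases activate, 7 of 11 were negative, from RPS6KA6 at -0.17 to RPS6KA1 at 0.060. RPS6KA6 was dim, with means of 3.11 in inhibitor and 3.28 in control arrays, so whether it is expressed cannot be said. In RAS activation, 4 of 7 were positive, with NF1, which switches RAS off, at 0.18 and the adaptor GRB2 at -0.21. Arrays of the groups did not overlap for 9 of the 67 genes (13.4%), each with the inhibitor arrays below, against 7.68% of all genes wholly below and 12.9% separate in either direction. The mean of the phosphatases was 6.674, 6.776 and 6.756 in inhibitor arrays and 6.824, 6.823 and 6.855 in control arrays, and that of all 67 genes 6.90 to 6.95 in inhibitor and 6.96 to 6.97 in control arrays. Both lay below the controls in each inhibitor array, and the lists were not tested.

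MAP2K4 values over the 6 arrays, whatever their group, were most like those of PCK1, MRPS16, TRIP4, ZBTB33 and ARMCX4, with Pearson r from 0.983 to 0.994 as a description over 6 arrays and 16904 genes read by at least 3 probe sets. The closest member was MAPK15.

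The cells were checked against markers. Epithelial markers averaged 9.54 to 9.60 in inhibitor and 9.54 to 9.55 in control arrays, with KRT8 the highest of the 6 measured. CDH1, the lowest of them, was at 6.11, near the column medians of 6.02 to 6.07 and below COL1A1 of the fibroblast list (6.38). CDH1 alone would not mark the cells as epithelial. Fibroblast markers averaged 4.19 to 4.31 in inhibitor and 4.14 to 4.35 in control arrays, and endothelial markers 3.65 to 3.68 in inhibitor and 3.73 to 3.95 in control arrays. Leukocyte markers averaged 5.12 to 5.23 in inhibitor and 5.00 to 5.10 in control arrays, with LYZ at 8.82 and PTPRC, which defines leukocytes, at 2.58. Control replicate 1 correlated least with its fellow arrays, at an average r of 0.991, where the remaining 5 arrays had 0.993 to 0.994. It was the highest or lowest of the 6 arrays for 19 of the 38 members (50.0%, against 47.4% of all genes). Without it, MAPK8, MAPK14, MAP2K7, MAP3K11 and MAPK10 were among the members whose sign turned. Its part in the other differences was not tested beyond leaving it out.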

How the data were processed

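The 6 arrays were compared as 3 inhibitor against 3 control samples. The deposited table holds log2 values for 257430 probe sets, with column medians of 6.02 to 6.07. The authors made it with the RMA method. Affymetrix Expression Console is named too, as is Transcriptome Analysis Console, all per the submitters' processing notes; versions are not given in the sources used here. RMA brings arrays to nearly one distribution, which hides any shift common to the bulk of genes. Probe sets naming 1 gene (224320) were averaged per gene, and 2533 old symbols were updated through RefSeq. No filter on dim genes was used. limma 3.58.1 in R 4.3.3 was fitted across all 18656 genes (lmFit, eBayes, no replicate block), with Benjamini-Hochberg adjustment and a threshold of 0.05. On 10 simulated sets with known changes, the fit recovered 26.9% of changes of 0.5 on the log2 scale. It recovered 90.8% of changes of 1.0 and 99.5% of changes of 2.0. The simulated arrays were independent draws with variances taken from the fit, and the changed genes planted in each set ease the adjusted threshold. In the real arrays, differences as large as 2.07 (LOC100289511) and -1.41 (CFB) were not called. The recovered shares therefore need not hold for the real arrays. Changes as small as the differences of the members were not simulated. The number of arrays limits precision.

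The members and lists were chosen with earlier results of these data known. Array values are given for MAP2K4 and, in each tier, for the member with the most positive and the most negative moderated statistic; pathway genes are named by the smallest p in each direction of a list. Brightness depends on the probes, so genes are not ranked by level. Protein sequences and target sites were not used here. Deviations of same-numbered arrays correlated at -0.032, -0.040 and 0.17, so replicate numbers were treated as names only. Alternatives were the replicate block, leaving out each array, quantile normalization, median centring, the median or the brightest probe set of a gene, filters on the dimmest 30% of probe sets or of genes, an intensity trend and the symbols as given.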

Additional observations from a re-analysis of the deposited data

How the results depend on the processing

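Under each of the 15 alternatives run, 0 members were called. Over all genes, the count of called genes ranged from 0 to 1 on dropping single arrays, with the 1 arising when control replicate 3 was dropped, and was 0 elsewhere. At an unadjusted p under 0.05 the members numbered 0 in the fit as reported, 0 to 2 when 1 array was left out, 2 with the median of probe sets and 3 with the brightest probe set. With the replicate number as a block, limma called 0 genes, and 1 member, MAP3K10, had an unadjusted p under 0.05 (0.017, adjusted p = 0.73), while MAP2K4 stayed at 0.047. Leaving out 1 array gave MAP2K4 -0.035 to 0.10, the members' median -0.045 to -0.026, and tier medians of -0.11 to 0.0087 (MAPK), -0.10 to -0.017 (MAP2K), -0.077 to -0.034 (MAP3K) and -0.0079 to 0.060 (MAP4K). With the median of probe sets the tier medians were 0.032 (MAPK), -0.010 (MAP2K), -0.10 (MAP3K) and -0.023 (MAP4K). With the brightest probe set they were -0.15 (MAP2K) and -0.047 (MAP4K), and without the dimmest 30% of genes, which left 34 members, the MAP4K median was 0.13. The block, median centring, the intensity trend, the symbols as given and the filter on dim genes leave a member's difference as it was by construction. In the other 10 alternatives, 32 of 380 member differences moved by more than the SD between replicates: 20 with the brightest probe set, 9 with the median and 3 after removing dim probe sets. The sign turned in at least 1 alternative for 23 members and in none for 15. The cause was not tested. With 3 arrays a group the median SE of a member's difference was 0.10, which limits the size of difference that can be resolved.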
